A study of Homo sapiens with 6 samples.

Results

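Genes of fatty acid oxidation and its control were followed in JHH-4 cells, an established line from a human hepatocellular carcinoma. They were chosen by name as CPT1A, CPT2, ACADM, ACADVL, HADHA, HADHB, PPARA, PPARGC1A and PDK4, and all 9 had a row among the 14034 rows of the deposited count table. Messenger RNA was counted in 3 libraries of cells that overexpressed hsa-miR-885-5p from a plasmid carrying the primary microRNA and in 3 libraries of control cells, labelled as wild type. The labels do not say what the control cells received or how long the plasmid was present. The 3 libraries of a group are technical replicates by the submitters' account, so p-values measure only the spread between such replicates.

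Long-chain fatty acids enter mitochondria as carnitine esters. CPT1A, on the outer membrane, makes the ester and sets the pace of the pathway in liver, and CPT2, on the inner membrane, turns it back into acyl-CoA. ACADVL and ACADM then carry out the first dehydrogenation of very-long-chain and medium-chain acyl-CoA, and HADHA and HADHB, the alpha and beta subunits of the mitochondrial trifunctional protein, carry out the remaining steps for long chains. PPARA is the nuclear receptor that switches these genes on in fasted liver, PPARGC1A (PGC-1alpha) is a coactivator of it and of other nuclear receptors, and PDK4 is a kinase that turns off the pyruvate dehydrogenase complex, so that pyruvate is spared while fat is burned.

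The sequence that sets which messages the microRNA can pair with is shown first, with the seed (bases 2 to 8) in capitals, followed by the strongest match found in 3′ UTRs of the 9 genes. The mature microRNA is from RefSeq (GRCh38.p14, chr3:10394531-10394552, minus strand), and the sites are from GENCODE 29 transcripts (GRCh38), with the site in capitals and 8 bases on either side. All capitals of the PDK4 site pair with the seed, while the last capital of the PPARA site, an A, lies opposite base 1 of the microRNA, outside the seed.
hsa-miR-885-5p: uCCAUUACacuacccugccucu
PDK4 site: tgcttctgGTAATGGtaatagaa
PPARA site: tacgaacaTAATGGAcgtgaagt

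The PDK4 match is of the 7mer-m8 type (GTAATGG) and lies at chr7:95583997-95584003 on the minus strand with its first base at 1638 of the 2142 bases of that 3′ UTR. PDK4 was the only 1 of the 9 genes whose longest annotated 3′ UTR held a 7mer-m8 or an 8mer (GTAATGGA), against 8.01% of the 12304 tested genes with a 3′ UTR. The PPARA match is of the weaker 7mer-A1 type (TAATGGA), at chr22:46239034-46239040 on the plus strand, with its first base at 3654 of the 8376 bases of that UTR. CPT1A, CPT2, ACADVL, HADHA, HADHB and PPARGC1A held none of these types in their longest 3′ UTR, and ACADM held 1 match of 6 bases (TAATGG). A match is a description of the letters and not a measured binding site.

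The regulators and the trifunctional protein genes were higher in miR-885-5p cells, while the second carnitine transferase and the medium-chain dehydrogenase were slightly lower. In edgeR's quasi-likelihood test, with Benjamini-Hochberg adjustment over all 14034 rows, called at 0.05, PPARA, PPARGC1A, CPT1A, HADHA and HADHB rose and CPT2 and ACADM fell, whereas ACADVL and PDK4 did not pass. That is 5 of 9 higher, against 26.3% of all rows, and 2 of 9 lower, against 26.5%. In either direction 52.9% of all rows passed, so a call by itself says little here. The libraries of the groups did not overlap in CPM for 7 of 9 genes, against 60.5% of all rows, and in FPKM, the authors' length-scaled unit, for 5 of 9, against 56.6%. The median log2 fold change of the 9 genes was 0.28, against -0.00061 over all rows. Only PPARA passed a test against a 1.5-fold change (adjusted p = 0.0015 with edgeR), and the other 6 called genes did not (adjusted p = 1 each). In bulk RNA, fewer cells of a type and less RNA per cell cannot be told apart.

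**Figure D1:**
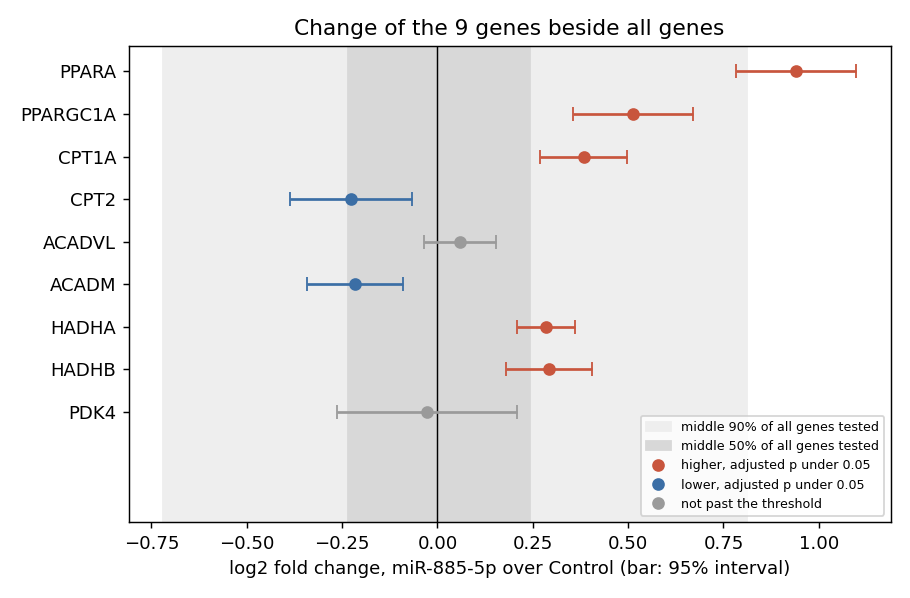
Log2 fold change of each gene, miR-885-5p over Control, with its 95% interval from the edgeR fit, over bands from the 25th to the 75th and from the 5th to the 95th percentile of all rows tested. PPARA lies above the upper edge of the wider band at 0.81. PPARGC1A, CPT1A, HADHA and HADHB lie inside the wider band, to the right of the narrower one. CPT2 and ACADM lie inside the narrower band, and the intervals of ACADVL and PDK4 span 0.

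PPARA (chr22:46150521-46243756, plus strand, GRCh38) changed most among the 9 genes. Its level, in CPM (counts scaled to a common library size by the trimmed mean of M values, TMM), was 21.98, 21.6 and 23.0 in miR-885-5p libraries 1 to 3, against 11.7, 10.9 and 12.02 in control libraries 1 to 3. All 3 miR-885-5p libraries were above all 3 control libraries. The log2 fold change was 0.94 (SE 0.07, adjusted p = 4.34e-06, edgeR), a 1.92-fold difference with a 95% interval of 1.72 to 2.14. Of all rows tested, 3.72% rose by as much or more.

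PPARGC1A (chr4:23755041-23904089, minus strand) had 22.8, 20.1 and 22.1 CPM in miR-885-5p libraries, against 15.6, 15.1 and 14.9 CPM in control libraries. The groups did not overlap, and the controls were within 1 CPM of each other. The gene rose 1.43-fold (log2 fold change 0.51, SE 0.07; edgeR adjusted p = 2.05e-04). The other members of the coactivator family differed from it in direction: PPARGC1B (PGC-1beta) fell to 4.27 ± 0.392 CPM in miR-885-5p cells, against 6.38 ± 0.779 CPM in control cells (SD, n = 3 each; log2 fold change -0.58, SE 0.14), and PPRC1 had a log2 fold change of -0.19 with overlapping groups (adjusted p = 0.0417, edgeR). Among the other PPAR receptors, PPARD rose by 0.19 (SE 0.06) on the log2 scale and PPARG had a value of -0.10 (SE 0.04, adjusted p = 0.0569, edgeR). The difference between these receptors and PPARA was not tested.

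**Figure D2:**
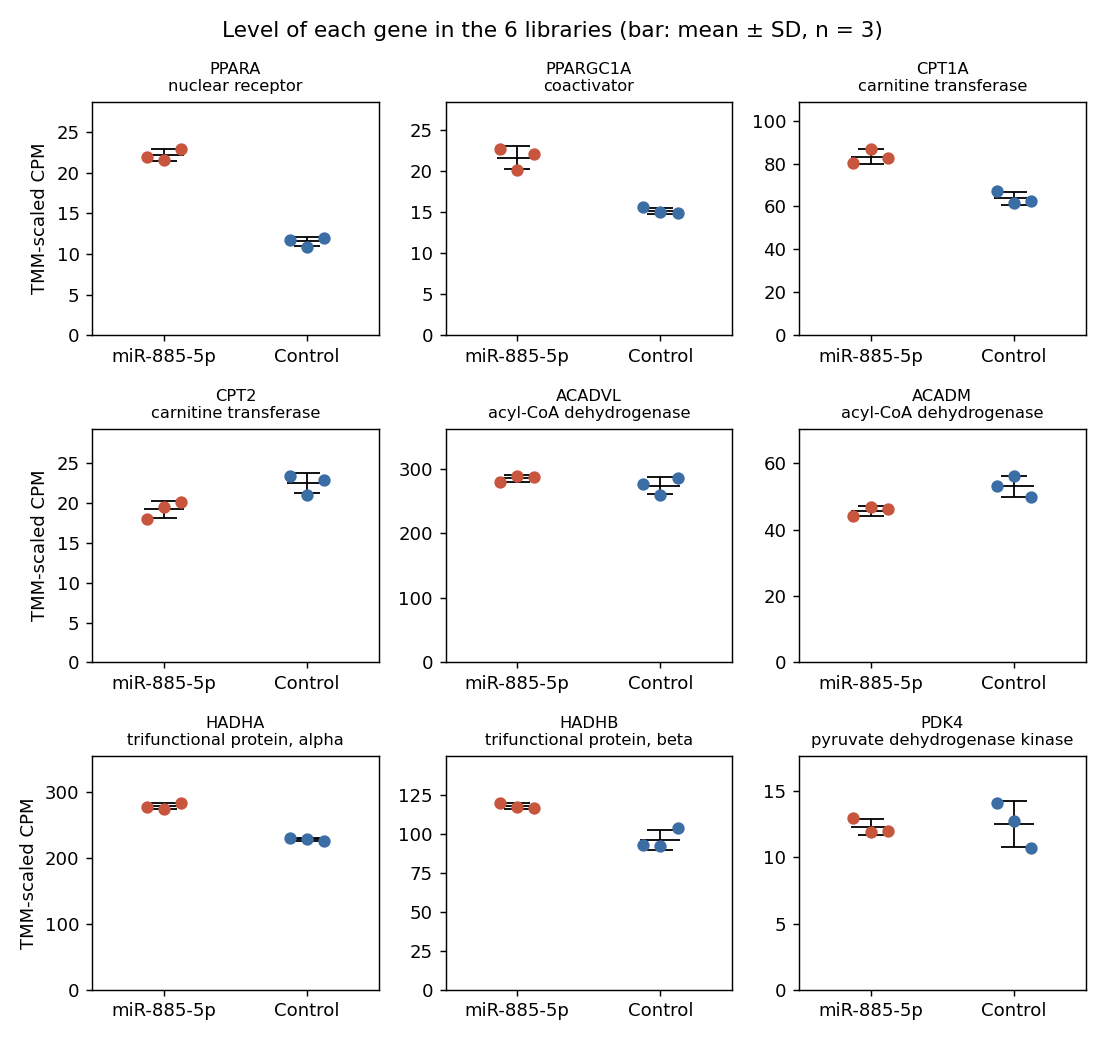
TMM-scaled CPM of the 9 genes, each in a panel of its own with an axis from 0, with 1 point per library and bars for the mean and SD of 3 libraries. The miR-885-5p points of PPARA lie between 21.6 and 23.0 CPM and the control points between 10.9 and 12.02 CPM, while those of PDK4 and ACADVL overlap between groups.

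The 2 carnitine transferases moved in opposite directions. CPT1A (chr11:68754620-68844410, minus strand) had 80.1, 87.0 and 82.4 CPM in miR-885-5p libraries, against 67.2, 61.7 and 62.4 CPM in control libraries, with a change of 0.38 on the log2 scale (SE 0.05; edgeR adjusted p = 1.63e-04). All 3 miR-885-5p libraries were above all 3 control libraries. CPT2 (chr1:53196429-53214197, plus strand) had 18.0, 19.5 and 20.1 CPM in miR-885-5p libraries, against 23.5, 21.1 and 22.9 CPM in control libraries, with a change of -0.23 on the log2 scale (SE 0.07; edgeR adjusted p = 0.0227). The nearest libraries of CPT2 differed by under 1 CPM. Its call ended without miR-885-5p library 1 (adjusted p = 0.0933), without miR-885-5p library 2 (adjusted p = 0.0521) and without control library 1 (adjusted p = 0.0793), and under total-count scaling (adjusted p = 0.062), all in edgeR.

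Compared per length, in the authors' FPKM (fragments scaled by gene length and library size), the ratio of CPT1A to CPT2 was 2.63, 2.51 and 2.42 in miR-885-5p libraries, against 1.68, 1.69 and 1.61 in control libraries. The ratio was higher in every miR-885-5p library than in every control library, and the exact two-sided permutation test gave p = 0.1, the smallest that 3 against 3 allows (0.2 after Benjamini-Hochberg adjustment over 4 ratios, which were chosen after the values had been seen). The ratio of PPARA to PPARGC1A had the same p, at 0.677 ± 0.0353 in miR-885-5p cells and 0.553 ± 0.0627 in control cells (SD, n = 3 each, exact permutation test, adjusted p = 0.2). The ratio of ACADVL to ACADM was 6.21 ± 0.584 in miR-885-5p cells and 5.25 ± 0.408 in control cells (SD, n = 3 each), with p = 0.2 in the exact permutation test.

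Of 6 other genes of carnitine entry, 5 were tested. CRAT, the carnitine acetyltransferase, rose to 42.2 ± 2.01 CPM in miR-885-5p cells, against 27.7 ± 2.65 CPM in control cells (SD, n = 3 each), a log2 fold change of 0.61 (SE 0.07). SLC25A20, the carrier that exchanges acylcarnitine for carnitine across the inner membrane, fell to 4.96 ± 0.539 CPM in miR-885-5p cells, against 8.59 ± 1.05 CPM in control cells (log2 fold change -0.79, SE 0.13, adjusted p = 6.64e-04, edgeR). CPT1B, the muscle form of the outer transferase, rose by 0.59 (SE 0.12) on the log2 scale, but it lies inside the readthrough gene CHKB-CPT1B, which has a row of its own, so how reads were divided between them affects its value. In all, 2 of these 5 rose and 2 fell, and CPT1C was not analysed here.

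Of the 2 acyl-CoA dehydrogenase genes among the 9, ACADM fell slightly and ACADVL did not pass the test. ACADVL (chr17:7217125-7225273, plus strand) had 279, 289 and 287 CPM in miR-885-5p libraries, against 277, 259 and 285 CPM in control libraries. The groups overlapped, and the fold change was 1.04 with a 95% interval of 0.976 to 1.11 (adjusted p = 0.263, edgeR), so a change of over 1.11-fold lay outside the interval. ACADM (chr1:75724347-75787575, plus strand) had 44.0, 46.9 and 46.1 CPM in miR-885-5p libraries, against 53.1, 56.2 and 49.96 CPM in control libraries. Its groups were apart in CPM, with a change of -0.22 on the log2 scale (SE 0.06; edgeR adjusted p = 0.0094). In FPKM they did overlap, at 17.3, 19.4 and 22.5 in miR-885-5p libraries and 20.4, 21.9 and 23.2 in control libraries, and limma on log2(FPKM + 0.1) gave -0.15 (adjusted p = 0.234). CPT2 behaved likewise on that scale, at -0.16 (adjusted p = 0.12, limma). ACADS, the short-chain member of the family, did not pass (log2 fold change 0.12, SE 0.14; edgeR adjusted p = 0.495), and its groups overlapped. Part of ACADVL overlaps DLG4 on the other strand and the end of ACADM overlaps RABGGTB on the same strand. The end of CPT2 overlaps C1orf123 by 99 bases on the other strand. CPT2 and PPARGC1A also overlap antisense genes that have no row of their own. The library kit named in the labels does not mark strand, so reads in the shared parts cannot be told apart.

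CPT2 and ACADM share the short arm of chromosome 1, on which more genes fell than rose. Of 694 tested genes on that arm 387 were lower (55.8%) and 76 higher (11.0%), with a median log2 fold change of -0.23. Among 11726 other genes with a position 26.1% were lower and 28.4% higher, with a median of 0.01. These include 575 genes on the long arm of chromosome 1, which leaned the other way. There 17.2% were lower and 47.1% higher, with a median of 0.16. The values of CPT2 and ACADM, -0.23 and -0.22, lay close to the median of their arm, and the part that the arm has in them was not tested. The 50 nearest tested neighbours had a median of -0.24 for CPT2 and -0.26 for ACADM, against medians from -0.06 to 0.14 for the neighbours of the other 7 genes. Off that arm, 5 of 7 members rose.

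**Figure D3:**
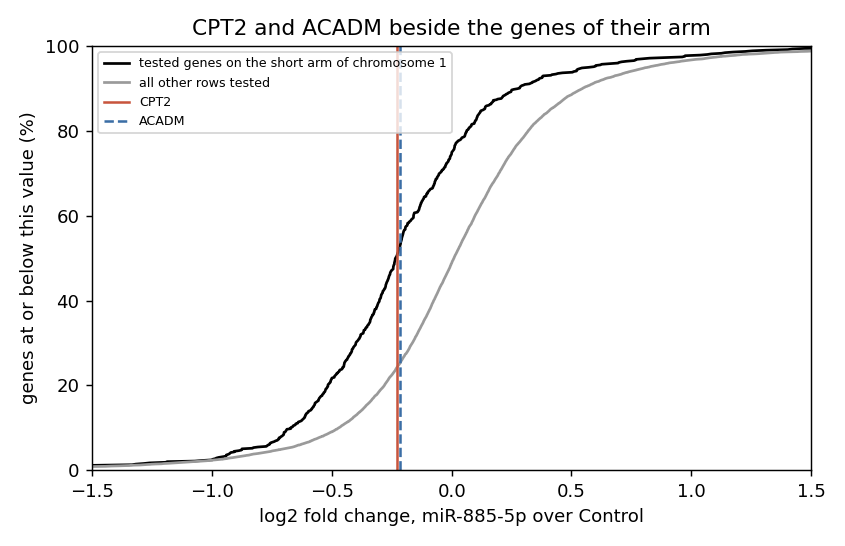
Cumulative share of genes (percent) by log2 fold change, miR-885-5p over Control, for the tested genes on the short arm of chromosome 1 (black) and all other rows (grey), with vertical lines at CPT2 and ACADM. The black curve lies left of the grey one, and both lines cross it close to its median of -0.23.

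HADHA and HADHB rose together. HADHA (chr2:26190635-26244726, minus strand) had 277, 274 and 283 CPM in miR-885-5p libraries, against 230.4, 229 and 226 CPM in control libraries (log2 fold change 0.28, SE 0.03, adjusted p = 7.80e-05, edgeR). HADHB (chr2:26243170-26290468, plus strand) had 120, 117 and 116 CPM in miR-885-5p libraries, against 93.0, 91.9 and 104 CPM in control libraries (log2 fold change 0.29, SE 0.05, adjusted p = 8.39e-04, edgeR). Neither gene's groups overlapped, and control library 3 was the highest control for HADHB and the lowest for HADHA. Their FPKM ratio was 1.63 ± 0.046 in miR-885-5p cells and 1.64 ± 0.0867 in control cells (SD, n = 3 each), with p = 0.9 in the exact permutation test. The annotated genes overlap by 1557 bases at their 5′ ends, so some reads there could be counted for either, and HADHA has 2 annotated pseudogenes.

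Because HADHA and HADHB moved alike and are read away from each other, the HADHB promoter, which covers most of the stretch between their starts, is shown, followed by the promoter of PPARA, the gene that rose most. Both are from RefSeq (GRCh38.p14), run from 250 bases before to 50 after the start in the direction of the gene, and have the GC box (GGGCGG on either strand) in capitals. The window of HADHB is chr2:26244689-26244988 on the plus strand and shares 194 bases with that of HADHA, whose start lies 307 bases away. These RefSeq starts leave a gap between the genes, whereas their GENCODE spans overlap. The window of PPARA is chr22:46150276-46150575 on the plus strand.
HADHB: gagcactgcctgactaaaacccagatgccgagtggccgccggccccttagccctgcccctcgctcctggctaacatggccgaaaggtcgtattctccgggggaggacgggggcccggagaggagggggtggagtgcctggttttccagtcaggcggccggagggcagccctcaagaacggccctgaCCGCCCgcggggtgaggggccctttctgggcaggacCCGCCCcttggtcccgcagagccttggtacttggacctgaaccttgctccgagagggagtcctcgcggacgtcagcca
PPARA: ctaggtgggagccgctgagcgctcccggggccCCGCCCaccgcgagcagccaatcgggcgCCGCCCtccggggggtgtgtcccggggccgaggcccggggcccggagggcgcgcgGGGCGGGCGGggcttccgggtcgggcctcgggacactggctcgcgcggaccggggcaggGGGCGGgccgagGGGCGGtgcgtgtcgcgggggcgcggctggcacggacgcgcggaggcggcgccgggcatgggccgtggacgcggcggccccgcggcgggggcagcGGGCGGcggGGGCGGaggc

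The PPARA window held 8 GC boxes, 2 of them overlapping, and the HADHB window held 2. A GC box was found in the windows of 7 of the 9 genes, all but CPT1A and ACADVL, and in 45.0% of 35116 promoters of this length. The only box of HADHA, at -248 from its start, is the same site as the HADHB box at -64. That site lies in the stretch shared by the windows and was counted for both genes. The RefSeq window used for PPARGC1A (chr4:24472856-24473155, minus strand) lies outside and upstream of the GENCODE gene span, chr4:23755041-23904089. It therefore does not describe the start of that span. The core element of nuclear receptors (AGGTCA, either strand) was found in none of the 9 windows and in 13.8% of all promoters. The repeat that PPAR dimers bind, which is AGGTCA, any 1 base and AGGTCA again, was found in none of the 9 and in 8 promoters overall. The absence says only that these letters are not in these windows.

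PDK4 (chr7:95583499-95596491, minus strand) did not pass the test. It had 12.96, 11.9 and 11.99 CPM in miR-885-5p libraries, against 14.1, 12.8 and 10.7 CPM in control libraries. The control libraries included both the highest and the lowest value, so the groups overlapped fully. The fold change was 0.981 with a 95% interval of 0.833 to 1.16 (adjusted p = 0.846, edgeR), and its sign turned under total-count scaling, in FPKM and without control library 1. The genes with the most similar profile, by the root mean square difference in centred log2 CPM over the 6 libraries, were ARHGEF3 (0.0311), ABHD18 (0.0423) and ZNF335 (0.0439). In all 3, as in PDK4, control library 1 was the highest and control library 3 the lowest. Since the 3 were picked for likeness to PDK4 in these same libraries, the shared order is not a separate result.

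The other kinases and the phosphatases of pyruvate dehydrogenase did change. PDK3 fell to 2.12 ± 0.279 CPM in miR-885-5p cells, against 6.01 ± 0.712 CPM in control cells (SD, n = 3 each), or -1.51 on the log2 scale (SE 0.17; edgeR adjusted p = 5.27e-05). PDK1, which hypoxia induces, fell by 0.32 (SE 0.06) and PDK2 rose by 0.31 (SE 0.07) on the log2 scale. PDP1, a phosphatase that reactivates the complex, rose to 22.4 ± 0.34 CPM in miR-885-5p cells, against 9.80 ± 0.45 CPM in control cells (SD, n = 3 each; log2 fold change 1.19, SE 0.07, adjusted p = 8.68e-07, edgeR). PDP2, a second phosphatase, rose by 0.53 (SE 0.05). Of the 13 genes listed for pyruvate entry 5 rose and 6 fell, with a median log2 fold change of -0.04. Per length, PDK2 had the highest FPKM of the 4 kinases in both groups, 22.7 in miR-885-5p cells and 17.6 in control cells, against 3.22 and 3.15 for PDK4.

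Across 8 further lists with 113 genes of uptake, oxidation, ketone bodies, pyruvate entry and regulation, 97 genes were tested, of which 32 rose (33.0%) and 25 fell (25.8%), against 26.3% and 26.5% of all rows. Their median log2 fold change was 0.07. Of these 97 genes 5 lie on the short arm of chromosome 1, and among the 92 others 31 rose and 23 fell. The lists therefore moved both ways, and the genes with the smallest adjusted p of each are given here by role.

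Among 13 tested genes of fatty acid uptake and activation 6 rose and 4 fell. CD36, a fatty acid transporter at the cell surface, rose to 7.12 ± 1.06 CPM in miR-885-5p cells, against 1.79 ± 0.233 CPM in control cells (SD, n = 3 each; log2 fold change 1.99, SE 0.17). FABP5, a cytosolic fatty acid binding protein, fell to 58.2 ± 1.21 CPM in miR-885-5p cells, against 105 ± 7.01 CPM in control cells, and ACSL5, an acyl-CoA synthetase, fell by 0.65 (SE 0.05) on the log2 scale. All 3 had groups that did not overlap.

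Of 17 other tested genes of mitochondrial acyl-CoA oxidation 4 rose, 4 fell and 9 did not pass. ETFDH, which passes electrons from the dehydrogenases to ubiquinone, fell to 11.0 ± 1.45 CPM in miR-885-5p cells, against 17.3 ± 0.703 CPM in control cells (SD, n = 3 each; log2 fold change -0.65, SE 0.10). ACADSB, which acts on short branched acyl-CoA, rose by 0.58 (SE 0.06) and ACAD10 by 0.43 (SE 0.06). In peroxisomes, where very-long-chain fatty acids are first shortened, 4 of 14 genes rose and 2 fell. The oxidase gene ACOX3 rose by 0.51 (SE 0.10) on the log2 scale, while ABCD3, a transporter gene on the short arm of chromosome 1, changed by -0.60 (SE 0.05). None of the 4 tested genes of ketone body metabolism passed with edgeR, DESeq2 or limma-voom, and 1 of 4 had an unadjusted p under 0.05 with each tool, while limma on FPKM called OXCT1.

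Of 24 other tested regulators 9 rose and 5 fell. MLYCD, which removes malonyl-CoA, the inhibitor of CPT1A, rose to 12.7 ± 0.724 CPM in miR-885-5p cells, against 7.49 ± 0.569 CPM in control cells (SD, n = 3 each; log2 fold change 0.76, SE 0.09). The AMP-activated kinase subunit genes PRKAA2 and PRKAG2 fell by 0.56 (SE 0.05) and 0.37 (SE 0.05), and PRKAA2 is on the short arm of chromosome 1. ESRRA, a nuclear receptor that works with PPARGC1A, rose by 0.47 (SE 0.11) on the log2 scale and was chosen after its values had been seen.

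Of 7 tested further genes listed as targets of PPARA, 2 rose and 2 fell. PLIN2, which coats lipid droplets, fell to 139 ± 5.98 CPM in miR-885-5p cells, against 219 ± 6.81 CPM in control cells (SD, n = 3 each; log2 fold change -0.65, SE 0.04, adjusted p = 2.02e-06, edgeR). TXNIP rose by 0.81 (SE 0.12) and the thioesterase gene ACOT2 by 0.41 (SE 0.08) on the log2 scale, the last of which has a close copy in ACOT1. ANGPTL4, a lipase inhibitor chosen after its values had been seen, did not pass (log2 fold change -0.09, SE 0.14; edgeR adjusted p = 0.594).

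**Figure D4:**
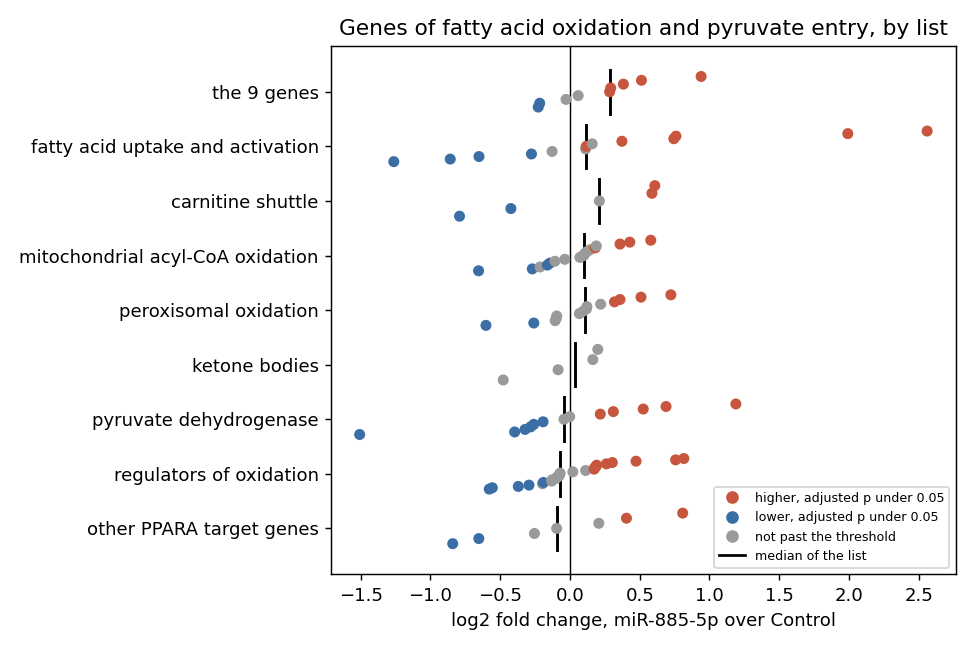
Log2 fold change, miR-885-5p over Control, of each tested gene in the 9 genes and 8 further lists, with 1 point per gene, colour for the edgeR call and a black bar at the list's median. Every list except that of ketone bodies holds genes called in both directions, and list medians lie between -0.09 and 0.28.

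By level per length the order of the 9 genes was nearly the same in both groups. ACADVL was highest, at 121 ± 4.44 FPKM in miR-885-5p cells and 114 ± 5.16 FPKM in control cells (SD, n = 3 each), followed by HADHA, HADHB, ACADM, CPT1A and CPT2, each apart from its neighbours in the range of its libraries. PPARGC1A, PDK4 and PPARA were lowest. PPARGC1A and PDK4 exchanged places, at 3.44 ± 0.201 and 3.22 ± 0.133 FPKM in miR-885-5p cells and 2.1999 ± 0.0551 and 3.15 ± 0.413 FPKM in control cells. In miR-885-5p cells these 2 neighbours overlapped in range.

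**Figure D5:**
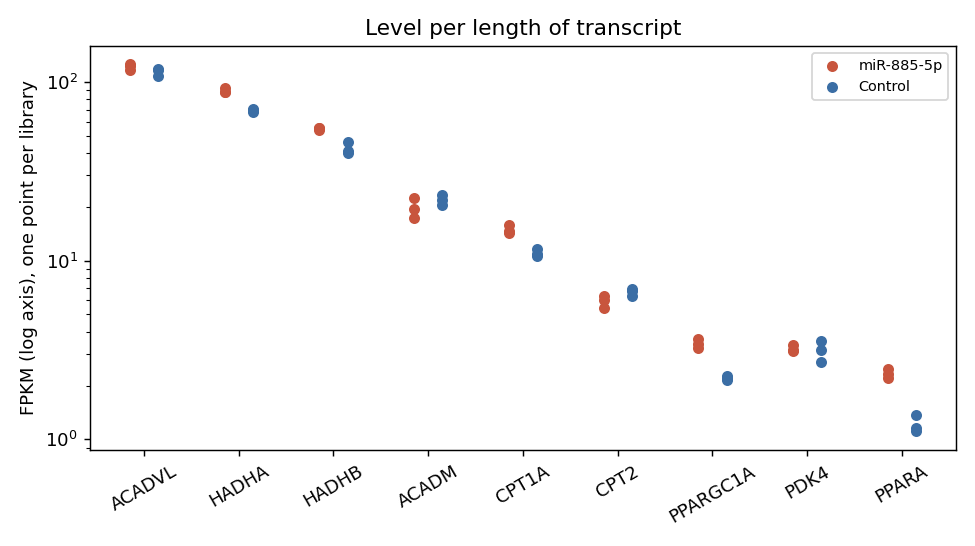
FPKM of the 9 genes on a log axis, ordered by their mean in miR-885-5p cells, with 1 point per library and miR-885-5p left of Control. Levels span from 121 FPKM for ACADVL to 2.33 FPKM for PPARA in miR-885-5p cells, and the PPARA points of the groups lie apart.

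Total counts ran from 46382314 to 56409821 in miR-885-5p libraries and from 48327113 to 49694754 in control libraries. The cells are labelled epithelial-like: KRT8, KRT18 and KRT19 together had 2811 to 2907 CPM in miR-885-5p libraries and 3342 to 3440 CPM in control libraries, while CDH1 and EPCAM were not analysed here. Of the hepatocyte markers, SERPINA1 had a log2 fold change of -0.08, and ALB was among those not analysed here. Of 5 fibroblast markers 3 were tested, with a summed level of 27.98 to 28.9 CPM in miR-885-5p libraries and 15.7 to 18.2 CPM in control libraries. Of 4 endothelial markers 2 were tested, at 2.50 to 2.78 CPM in miR-885-5p libraries and 1.42 to 2.08 CPM in control libraries. Of 6 leukocyte markers CD68 and CD14 were tested, together at 125 to 128 CPM in miR-885-5p libraries and 118 to 139 CPM in control libraries. The part of these genes in the results was not tested.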

How the data were processed

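RNA-seq libraries of JHH-4 cells (3 miR-885-5p, 3 control, grouped by sample title) were analysed from 1 table. Per the file headers, the authors deposited a raw count and an FPKM value per gene and library, beside a log2 fold change and p-value of their own, with no test named. DESeq2 1.38.3, HISAT2 2.0.4 and StringTie 2.2.1, and the build GRCh38, are listed without role or order, per the submitters' processing notes. The read counter and annotation were not given in the sources used here. In the authors' deposited table the log2 fold changes of PPARA, CPT1A and PDK4 were 0.94, 0.38 and -0.03, with p-values of 3.11e-25, 1.60e-10 and 0.814.

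Counts were fitted over all 14034 rows in R 4.3.3 by the quasi-likelihood method of edgeR 4.0.16 (TMM scaling, Benjamini-Hochberg adjustment, filterByExpr, which removed 0 rows). The members, lists, tests and named genes were chosen with earlier results of these data known. Named were the 9 members, the 3 genes of each list with the smallest adjusted p, relatives of a member and the 3 genes most like PDK4. Some results that these rules would name are not reported here. Positions and 3′ UTRs came from GENCODE 29, the longest UTR of protein-coding transcripts being used. Alternatives were 3 scalings, DESeq2 1.42.0, limma-voom (limma 3.58.1), filters at 1 and 5 CPM and none, a replicate block, a test against 1.5-fold, named rows only and each library left out. Added once values were known were FPKM in limma (pseudocount 0.1) and leaving out the short arm of chromosome 1. The main edgeR test, DESeq2 and limma-voom were first tested on simulated counts, while limma on FPKM and the test against 1.5-fold were not. Replicates differed by more than sampling noise (chi-square per degree of freedom 7.95 to 40.5 within groups). Total counts of 46382314 to 56409821 gave each of the 9 genes at least 514 counts in every library.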

Additional observations from a re-analysis of the deposited data

How the results depend on the processing

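PPARA, PPARGC1A, CPT1A, HADHA and HADHB were higher in every alternative run, and only the test against 1.5-fold ended calls among them, where 1 member was called higher. Members called lower numbered 1 under total-count scaling, and 0 in the test against 1.5-fold, in limma on FPKM and, by construction, without the short arm of chromosome 1. Leaving out single libraries gave 1 to 2 members lower, with CPT2 losing its call in 3 of 6. The sign of PDK4 turned to 0.021 under total-count scaling, 0.039 in limma on FPKM and 0.067 without control replicate 1, with no call in any, and its range with single libraries left out was -0.13 to 0.067. The test against 1.5-fold called 903 rows in all, against 7423, and 3 wider list genes higher and 3 lower. Members with a seed site numbered 0 of 9 for the 8mer alone, against 2.54% of the 12304 tested genes with a 3′ UTR. They numbered 2 with the 7mer-A1 added (against 17.2%) and 3 with the 6mer added (against 30.4%). When all coding transcripts were searched, the 6mer count was 4 (against 32.55%). Same-numbered libraries did not deviate together (correlations of -0.14, -0.07 and -0.16), so the numbers were not taken to pair them. With the replicate number as a block 6695 rows were called, and 5 members were higher and 2 lower, as without it. Other than for the fold threshold and the arm left out, the cause was not tested. Each of the 9 genes had at least 514 counts in every library. Relative counting error is largest for PDK4, PPARA, PPARGC1A and CPT2, which have the lowest counts of the 9. CPT2 had fewer counts than PPARA and PPARGC1A in the miR-885-5p libraries and more in the control libraries.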
